A study of Mus musculus with 12 samples.

Results

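The genes described here are the mouse genes named Zfp with a number, a large set of zinc finger protein genes, in hearts taken 8 hours after myocardial infarction (MI) or sham surgery. They were chosen by symbol and by brightness: a gene entered if its 1 annotated symbol began with Zfp and a digit, if it was not Zfp36, Zfp36l1 or Zfp36l2, and if its brightest probe set had a mean signal of 17 or more over all 12 arrays. Of 170 such Zfp genes on the array, 106 reached that level, out of 12393 genes measured in all. The level used the signals of all 12 arrays together and not the difference between MI and sham. Just inside it lay Zfp239 at a mean signal of 17.1, Zfp553 at 17.8 and Zfp707 at 17.9, and just outside it lay Zfp202 at 16.9, Zfp14 at 16.8 and Zfp113 at 16.4. A further 6 Zfp genes were on probe sets that share several symbols and were not read.

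Hearts came from C57Bl/6 mice, with 3 mice in each of 4 groups and 1 array per mouse, and no genetic change is named for any group. Wake MI and wake sham mice had surgery between zeitgeber time (ZT, hours after lights on) 13 and 15 and were killed at ZT 23, and sleep MI and sleep sham mice had surgery between ZT 1 and 3 and were killed at ZT 11. The labels describe the MI samples as infarcted myocardium and the sham samples by their surgery. They do not say which part of the heart was taken or the age of the mice. The design asks how the hearts respond to infarction and whether the response depends on the time of day of surgery.

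Zinc fingers are short loops of protein held by a zinc ion, and tandem C2H2 fingers read DNA or RNA sequence. Many mouse Zfp genes encode KRAB zinc finger proteins, whose KRAB domain recruits the corepressor Trim28 and, through it, the methyltransferase Setdb1, heterochromatin protein 1 and histone deacetylases to silence transposable elements and nearby genes. These genes arose by repeated tandem duplication and stand in clusters, so close relatives are often neighbours. A Zfp symbol says only that the protein has zinc fingers: other members bind RNA, mature ribosomes, modify proteins with ubiquitin or act in mitosis.

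Signals were deposited MAS5 intensities on a linear scale, and each array had the same trimmed mean of 150.1. Heart muscle was plainly present: all 10 heart muscle markers were tested, and their summed signal ran from 67062 to 93926 over the 12 arrays. Of 10 lymphocyte markers, 0 reached the level used for testing. Of 10 neutrophil markers, 7 were tested and 6 were higher with MI over both times, with a median log2 difference of 1.42. Their summed signal was 1008 to 1421 in wake MI, 152 to 566 in wake sham, 1165 to 2121 in sleep MI and 312 to 925 in sleep sham hearts. Of 4 atrial markers, 3 were lower in wake MI than in wake sham hearts, where their summed signal ran from 1715 to 14686 over the 3 sham arrays. Of 9 fibroblast markers, 3 were lower with MI over both times and 3 in wake hearts, where their median log2 difference was -0.66. Their summed signal was 6558 to 8573 in wake MI, 9249 to 14311 in wake sham, 8821 to 11505 in sleep MI and 8773 to 12315 in sleep sham hearts, so the wake groups did not overlap and the sleep groups did. Between the 3' and 5' probe sets of the beta-actin control the signal ratio, which grows as RNA breaks down, was 2.17 to 3.31 in wake MI, 1.77 to 1.81 in wake sham, 2.09 to 2.92 in sleep MI and 1.94 to 2.49 in sleep sham arrays.

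Most Zfp genes were dim. Their mean signals ran from 17.1 to 1544 with a median of 55.5, against a median of 121.5 over all 8109 genes tested, and 80 of the 106 had a mean signal under 100. Of the 106 genes, 105 reached the testing level of 17.3 and Zfp239 did not: its 12 signals ran from 9.06 to 24.96 with no group apart from the rest.

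The main result was a set of modest falls with a few rises. Over both times, 25 of 105 Zfp genes passed the test at an adjusted p below 0.05, 4 higher and 21 lower in MI than in sham hearts (limma, Benjamini-Hochberg over all genes tested). That is 23.8% of the members against 22.2% of all genes tested, so the share of Zfp genes that changed was near the background. Split by direction, 20.0% of members fell against 13.6% of all genes, and 3.81% rose against 8.57%. The median log2 difference of the members was -0.11, against -0.06 over all genes tested, and 76.2% of the members had a negative difference, against 60% of all genes. Differences here are on the log2(signal + 16) scale, which understates the change of dim genes. Sizes were small for most members: 62 of 105, 59.0%, differed by less than 0.25 in either direction, against 69.2% of all genes tested. Below -0.5 lay 10 members, 9.52%, against 3.01% of all genes. Zfp101 and Zfp82 are among these 10 and reached the testing level through their sham hearts alone. In all, 7 members did so, each with a negative difference. They are kept in the shares of this paragraph, which therefore lean to falls in part through the level itself. In 15 members, or 14.3%, the 3 MI and 3 sham signals did not overlap at either time, against 11.3% of all genes. Among the 79 tested members with a mean signal under 100, 20.3% fell, against 12.2% of 3496 other genes that dim. Their median was -0.15 against -0.07. Of the 26 members at 100 or more, 19.2% fell, against 14.5% of 4508 other genes that bright. The median of these 26 was -0.03 against -0.05, so the lower median of the members was seen in the dim ones only.

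Where 3' to 5' beta-actin ratios entered the fit as a covariate, 9 of the 25 calls were left, 2 higher and 7 lower. Calls over all 8109 genes tested went from 1798 to 673 in the same fit, so the loss was not particular to Zfp genes. In heart tissue of mixed cells, fewer cells of a type and less RNA per cell cannot be told apart, and the part of neutrophil, fibroblast and atrial RNA in the Zfp differences was not tested.

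**Figure D1:**
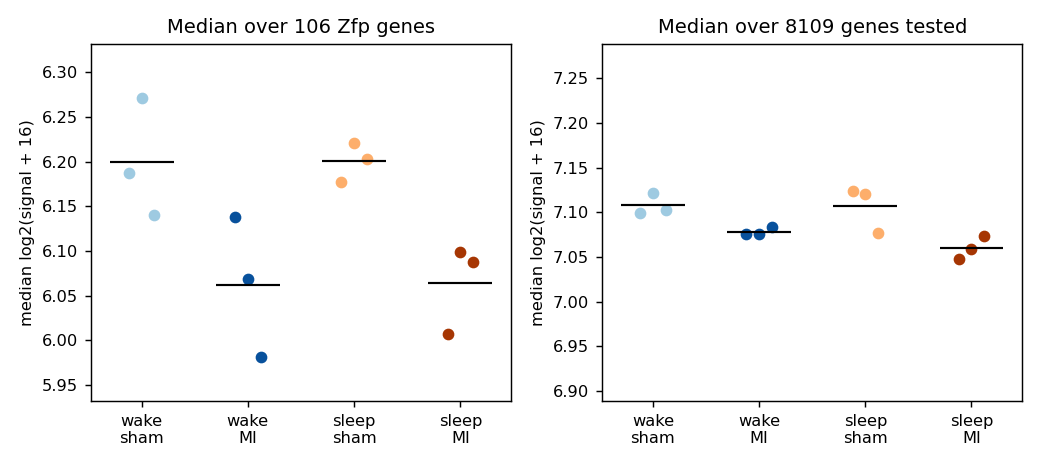
Median log2(signal + 16) on each array, over the 106 Zfp genes (left) and over all 8109 genes tested (right); each point is 1 array, each line the mean of 3, and both axes span the same range. The 6 MI arrays lie between 5.98 and 6.14 and the 6 sham arrays between 6.14 and 6.27 for the Zfp genes, against 7.05 to 7.08 and 7.08 to 7.12 for all genes.

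The per-array medians give the same picture without single-gene calls. The median Zfp level was 6.06 ± 0.08 in wake MI and 6.20 ± 0.07 in wake sham hearts, and in sleep hearts 6.06 ± 0.05 with MI and 6.20 ± 0.02 with sham surgery (SD over 3 arrays). The highest MI array and the lowest sham array, both from wake hearts, came close to each other at 6.14. In each period the 3 MI arrays lay below the 3 sham arrays, and this held for the median over all 8109 genes tested too.

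Among the rises, Zfp52 and Zfp948 led, and they are direct neighbours on chromosome 17. They stand in a run of 4 members, in the order Zfp51, Zfp53, Zfp52 and Zfp948. No other protein-coding gene lies between them in the gene order of GRCm38.p6, and other kinds of gene were not looked at. Zfp52 signals were 124, 189.7 and 71.8 in the 3 wake MI hearts, against 56.8, 60.5 and 35.8 in wake sham. In sleep hearts Zfp52 signals were 122, 134 and 145 with MI, against 62.1, 112 and 59.7 with sham. All MI hearts lay above all sham hearts at each time, and the second sleep sham heart came nearest to the MI range. The log2 difference of Zfp52 was 0.88 (SE 0.19, adjusted p = 0.00561, limma) over both times and 1.04 (SE 0.27, adjusted p = 0.0171) in wake hearts. The wake call was lost without wake MI replicate 2 (0.75, adjusted p = 0.0689) or wake sham replicate 3 (0.87, adjusted p = 0.0753). In sleep hearts alone the difference was 0.71 and did not pass (adjusted p = 0.194).

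Zfp948 signals were 60.6, 94.1 and 51.0 in wake MI, against 15.3, 26.3 and 24.8 in wake sham hearts. In sleep hearts they were 49.5, 53.9 and 60.6 with MI, against 33.9, 59.96 and 32.4 with sham. The wake groups were far apart and the sleep groups overlapped, with the second sleep sham heart as high as the MI hearts. The log2 difference of Zfp948 was 1.13 in wake hearts (SE 0.21, adjusted p = 0.00305, limma), a ratio of 2.19 on the signal + 16 scale, and 0.31 in sleep hearts (adjusted p = 0.486). The 2 differences themselves differed by 0.82 (SE 0.30), which did not pass the test (adjusted p = 0.352), so the time of day is not shown to matter for Zfp948.

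The other members of the run did not rise. Zfp51 was lower over both times by a log2 difference of -0.41 (SE 0.11, adjusted p = 0.0149, limma), with 34.8, 35.7 and 39.5 in wake MI against 40.9, 53.8 and 48.4 in wake sham, and 33.6, 41.6 and 29.0 in sleep MI against 46.6, 72.9 and 56.7 in sleep sham hearts. Zfp53 was near the testing level at a mean signal of 20.2, and its difference of -0.15 did not pass (adjusted p = 0.362). Neighbours in 1 tandem run thus had log2 differences over both times of -0.41, -0.15, 0.88 and 0.72.

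The upstream sequences of Zfp53, which did not pass, and of Zfp52 and Zfp948, which rose, are shown as those of neighbours with unlike differences. They are the 250 bases before the annotated start in RefSeq on GRCm38.p6, on the plus strand. Bases are in lower case, with matches to the motifs listed further on in capitals. Zfp51 is named only, so no window of the member of the run that fell is shown.
Zfp53, chr17:21488738-21488987: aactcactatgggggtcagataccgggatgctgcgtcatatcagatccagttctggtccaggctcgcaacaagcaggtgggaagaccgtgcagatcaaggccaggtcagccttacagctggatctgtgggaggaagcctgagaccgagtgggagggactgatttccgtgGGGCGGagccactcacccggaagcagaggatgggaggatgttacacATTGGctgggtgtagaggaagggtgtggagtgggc
Zfp52, chr17:21535289-21535538: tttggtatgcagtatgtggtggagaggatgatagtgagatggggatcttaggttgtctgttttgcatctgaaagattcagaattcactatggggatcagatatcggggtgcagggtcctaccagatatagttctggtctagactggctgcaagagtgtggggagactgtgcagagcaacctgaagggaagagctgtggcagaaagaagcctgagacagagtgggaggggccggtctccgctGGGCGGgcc
Zfp948, chr17:21566728-21566977: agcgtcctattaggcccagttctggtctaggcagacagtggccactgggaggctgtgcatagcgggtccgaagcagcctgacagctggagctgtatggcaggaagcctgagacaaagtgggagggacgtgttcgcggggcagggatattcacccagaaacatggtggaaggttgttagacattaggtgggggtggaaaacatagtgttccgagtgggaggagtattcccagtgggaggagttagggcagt

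A GC box (GGGCGG, here on the plus strand) was found in the windows of Zfp53 and Zfp52, and Zfp53 also held a CCAAT motif on the minus strand (ATTGG). None of the 6 motifs searched was found in the Zfp948 window. In a pairwise alignment, 66.4% of the 250 bases matched between Zfp53 and Zfp948, whose differences were -0.15 and 0.72. The other 2 pairs of the run matched at 56.4%, while pairs with the windows of Zfp275 and Zfp329, from other chromosomes, matched at 48.4% to 55.6%.

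**Figure D2:**
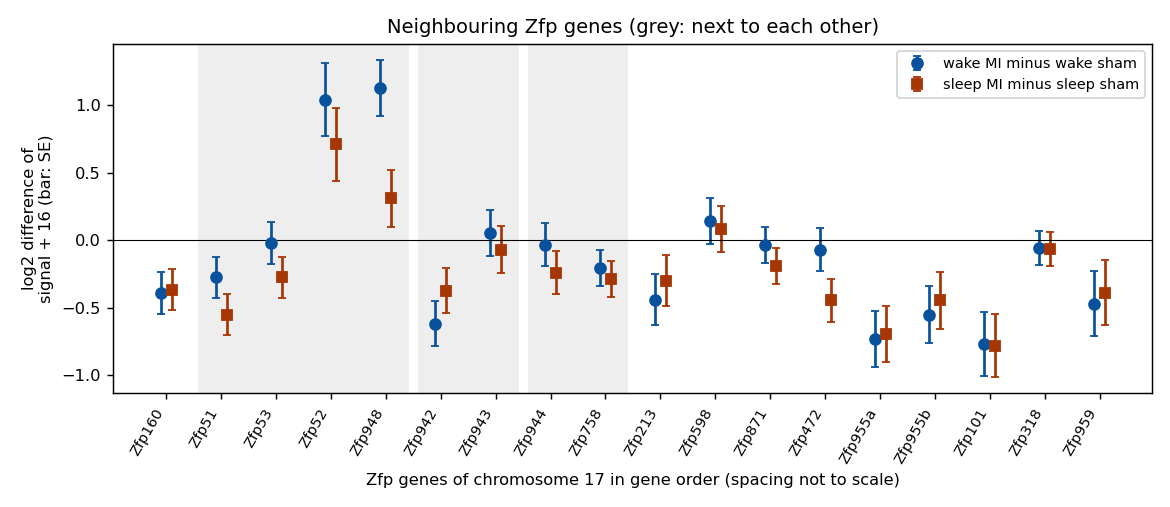
Log2 difference of signal + 16 between MI and sham hearts (points, bars SE) for the 18 Zfp members of chromosome 17 in gene order, wake hearts as circles and sleep hearts as squares. Grey bands join members with no other protein-coding gene between them. Zfp52 and Zfp948 are the only members of the chromosome above 0.5, with 1.04 and 1.13 in wake hearts.

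Chromosome 17 held 18 of the 106 members, more than any other; chromosome 7 held 16 and chromosome 8 held 13. Over both times 2 of the 18 rose and 6 fell (Zfp160, Zfp51, Zfp942, Zfp955a, Zfp955b and Zfp101). Among all 105 members tested 4 rose and 21 fell, or 3.81% and 20%, and among all genes tested 8.57% rose and 13.6% fell. Zfp101 reached the testing level through its sham hearts alone, and whether this chromosome differs from the others was not tested. Being next to one another did not mean moving alike: in a second pair on this chromosome Zfp942 fell by 0.49 (SE 0.12, adjusted p = 0.00964, limma) and its neighbour Zfp943 had a difference of -0.01 (adjusted p = 0.977). In all, 24 members stood next to another member, in 10 runs.

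Zfp568, a KRAB protein known for repressing a placental promoter of Igf2 during development, was the 1 member that rose in sleep hearts. Its signals were 139.8, 103 and 151 in sleep MI against 85.0, 64.9 and 45.9 in sleep sham, and 104, 201 and 134 in wake MI against 129.7, 112 and 99.98 in wake sham hearts. The sleep groups did not overlap, and the wake groups did. The log2 difference was 0.87 in sleep hearts (SE 0.22, adjusted p = 0.0495, limma), 0.29 in wake hearts (adjusted p = 0.385) and 0.58 over both times (SE 0.15, adjusted p = 0.0167). With the mean of all its probe sets in place of the brightest, the difference over both times was 0.34 and did not pass (adjusted p = 0.0532). The sleep call of Zfp568 was lost when any 1 of 9 arrays was left out, among them all 3 sleep MI and all 3 wake sham arrays, with adjusted p up to 0.182. The sleep sham hearts also lay below the wake sham hearts, by 0.70 on the log2 scale, which did not pass (adjusted p = 0.154).

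Zfp281, a GC-rich DNA binding factor known from pluripotent cells, rose slightly over both times by 0.27 (SE 0.08, adjusted p = 0.0352, limma). Its signals were 138, 144 and 154 in wake MI against 111, 109 and 127 in wake sham, and 120.4, 136 and 124 in sleep MI against 105, 122 and 89.1 in sleep sham hearts. The wake groups did not overlap, and in sleep hearts they overlapped through 1 sham heart. A second, dimmer probe set of Zfp281 gave 0.14 and did not pass (adjusted p = 0.539 in a fit of all probe sets), and the call of Zfp281 was lost when any 1 of 9 arrays was left out. Zfp1 rose in wake hearts, from 32.6, 27.8 and 34.8 in sham to 45.5, 48.1 and 48.1 in MI hearts, a log2 difference of 0.41 (SE 0.13, adjusted p = 0.0475), with 0.05 in sleep hearts. The call of Zfp1 was lost when any 1 of 11 arrays was left out.

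**Figure D3:**
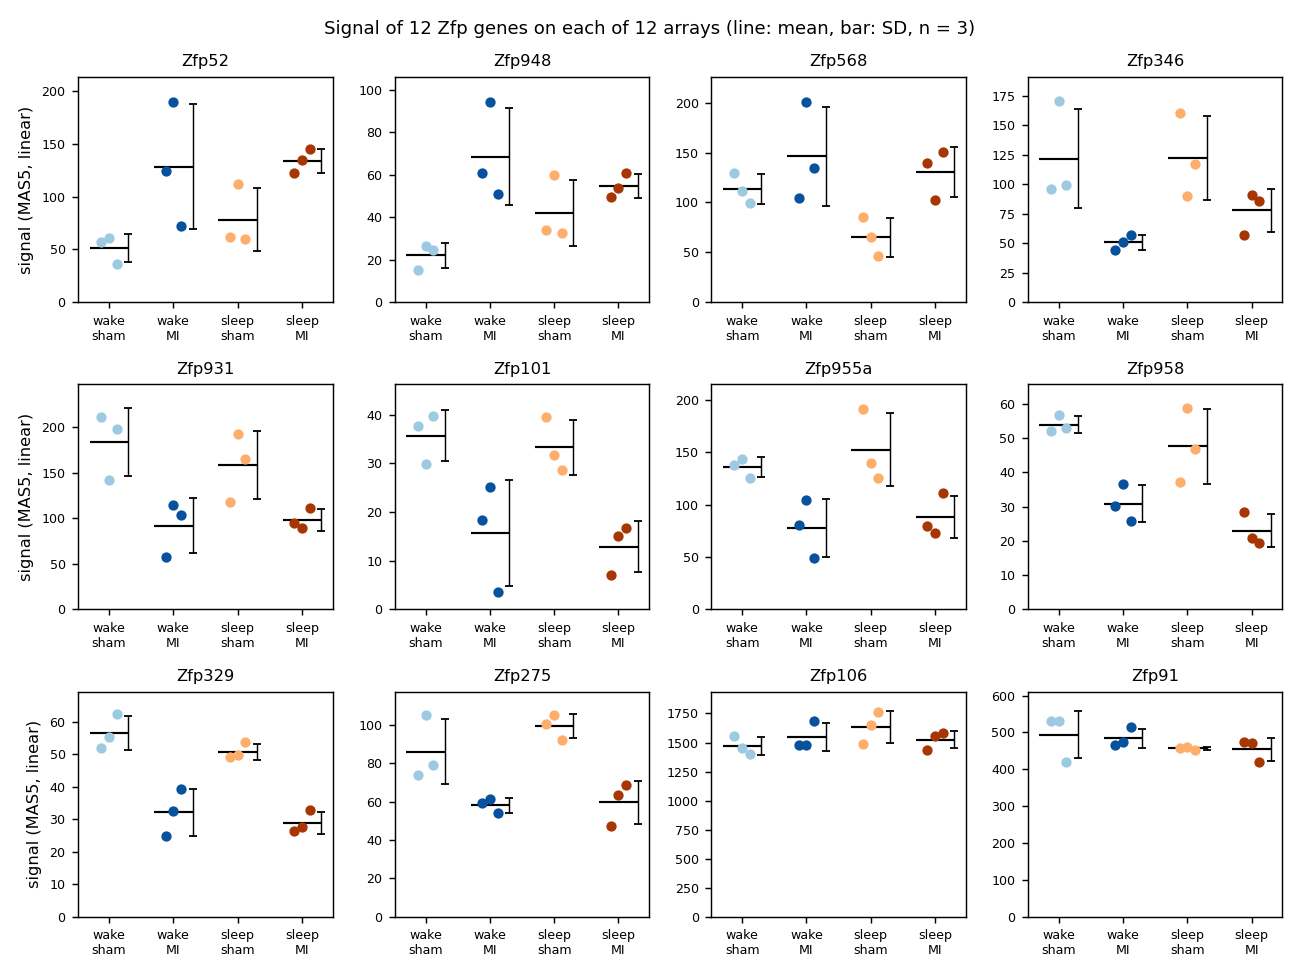
MAS5 signal (linear scale, from 0) of 12 Zfp genes on each of the 12 arrays; points are single arrays, lines the mean and bars the SD of 3. Zfp52 and Zfp948 are higher in wake MI than in wake sham hearts, the 7 genes from Zfp346 to Zfp275 are lower, and the bright Zfp106 and Zfp91 overlap between MI and sham.

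Of the 21 falls over both times, Zfp346 was the largest. Zfp346, also called JAZ, binds double-stranded RNA. Its signals were 43.9, 51.4 and 57.0 in wake MI against 95.6, 170.3 and 99.4 in wake sham hearts. In sleep hearts they were 56.8, 91.1 and 85.4 with MI against 159.9, 89.6 and 117 with sham. The wake groups were well apart, and the sleep groups overlapped by 1 heart in each. The log2 difference of Zfp346 was -1.01 in wake hearts (SE 0.22, adjusted p = 0.00759, limma), which left a ratio of 0.497 on the signal + 16 scale, and -0.78 over both times (SE 0.16, adjusted p = 0.00360). In sleep hearts it was -0.55 and did not pass (adjusted p = 0.226).

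Zfp275, Zfp329 and Zfp958 were the 3 members called in wake and in sleep hearts separately, and all 3 fell. Zfp329 signals were 24.8, 32.6 and 39.3 in wake MI against 51.9, 55.3 and 62.3 in wake sham hearts, and 26.5, 27.5 and 32.8 in sleep MI against 49.2, 49.7 and 53.7 in sleep sham hearts. Its log2 difference was almost equal at the 2 times, -0.60 in wake (SE 0.14, adjusted p = 0.00917, limma) and -0.58 in sleep hearts (SE 0.14, adjusted p = 0.0383). All 6 MI hearts lay below all 6 sham hearts.

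Zfp958 signals were 30.2, 36.5 and 25.9 in wake MI against 52.1, 56.7 and 53.0 in wake sham hearts, and 28.5, 20.9 and 19.5 in sleep MI against 37.1, 58.8 and 46.8 in sleep sham hearts. Again every MI heart lay below every sham heart. The log2 difference of Zfp958 was -0.58 in wake (SE 0.15, adjusted p = 0.0180, limma) and -0.70 in sleep hearts (SE 0.15, adjusted p = 0.0272). Zfp275 signals were 59.2, 61.7 and 53.9 in wake MI against 74.1, 105 and 79.2 in wake sham hearts, and 47.2, 63.7 and 68.6 in sleep MI against 101, 105 and 92.5 in sleep sham hearts. The highest MI heart stood at 68.6 and the lowest sham heart at 74.1. The log2 difference of Zfp275 was -0.45 in wake (SE 0.14, adjusted p = 0.0411, limma) and -0.62 in sleep hearts (SE 0.14, adjusted p = 0.0351).

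The sleep calls of all 3 were less firm than their calls over both times. Leaving out a single array ended the sleep call of Zfp275 for 5 of the 12 arrays, of Zfp329 for 9 and of Zfp958 for 4. Over both times, the falls of all 3 stayed called under every alternative in which they were tested. In wake hearts Zfp275 lost its call when a single array was left out for 7 of the 12, Zfp958 for 3 and Zfp329 for 0. For Zfp275 the wake call was thus lost for more arrays than the sleep call. Upstream windows of Zfp275 and Zfp329 are shown for these falls; that of Zfp958 is not shown. Zfp275 lies on the plus strand of chromosome X and Zfp329 on the minus strand of chromosome 7, and both are written in the direction of the gene.
Zfp275, chrX:73342370-73342619: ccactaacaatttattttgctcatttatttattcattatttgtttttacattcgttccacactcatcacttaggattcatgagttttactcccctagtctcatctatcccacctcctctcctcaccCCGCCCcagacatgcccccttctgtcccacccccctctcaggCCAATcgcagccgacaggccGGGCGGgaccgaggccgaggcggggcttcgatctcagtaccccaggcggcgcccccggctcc
Zfp329, chr7:12818861-12819110: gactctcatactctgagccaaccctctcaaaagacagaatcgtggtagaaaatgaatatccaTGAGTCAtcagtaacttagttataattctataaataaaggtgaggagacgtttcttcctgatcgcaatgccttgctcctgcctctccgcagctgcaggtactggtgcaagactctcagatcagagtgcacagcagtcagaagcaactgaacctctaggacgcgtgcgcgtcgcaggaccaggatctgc

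The Zfp275 window held 2 GC boxes, 1 on each strand, and a CCAAT motif, and the Zfp329 window held an AP-1 motif (TGAGTCA) and none of the others. Over the 104 listed windows of 85 members, the CCAAT motif (CCAAT) was in 51.0%, against 33.8% of all 32851 windows, and the GC box (GGGCGG) in 53.8%, against 32.7%. An E-box (CACGTG) was in 6.73% against 6.02% and an AP-1 motif (TGANTCA) in 5.77% against 6.75%. A cAMP response element (TGACGTCA) was in 0.962% against 1.55% and a D-box (TTATGNAA) in 0.962% against 3.07%. Both strands were searched and overlapping motifs counted separately. The windows of Zfp genes were richer in G and C, with a median of 57.0% against 52.4%, and the GC box consists of these bases, so the shares describe the windows and name no bound factor. Windows of 21 members were not used.

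Zfp931, Zfp955a, Zfp101, Zfp82 and Zfp524 fell over both times and in wake hearts, and their sleep differences were negative but did not pass. Leaving out a single array ended the wake call of Zfp931 for 1 array, of Zfp955a for 4, and of Zfp101, Zfp82 and Zfp524 for 3 each. Zfp931 signals were 57.6, 115 and 104 in wake MI against 211, 142 and 198 in wake sham hearts, and 94.5, 89.1 and 112 in sleep MI against 118, 193 and 165 in sleep sham hearts. Its log2 difference was -0.91 in wake hearts (SE 0.22, adjusted p = 0.0115, limma) and -0.59 in sleep hearts (adjusted p = 0.179). Its probe set carries the suffix for probes that can bind other transcripts, so part of its signal may belong to a relative.

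Zfp955a signals were 80.8, 104 and 49.2 in wake MI against 138, 144 and 125 in wake sham hearts, and 79.7, 73.3 and 111 in sleep MI against 191, 139.7 and 125 in sleep sham hearts. MI and sham did not overlap at either time. Its log2 difference over both times was -0.71 (SE 0.15, adjusted p = 0.00431, limma), with -0.73 in wake and -0.69 in sleep hearts. Its relative Zfp955b fell by 0.50 (SE 0.15, adjusted p = 0.0301) on its brightest probe set, while a second probe set of nearly equal brightness gave 0.02.

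Zfp101 and Zfp82 were near the testing level and were lower with MI. Both reached that level through their sham hearts, with means over 6 hearts of 14.3 with MI and 34.5 with sham in Zfp101, and of 13.8 and 26.6 in Zfp82. A gene as dim as these entered the test because it was higher in sham, so their falls are a description and lend no support to the count. Of the tested members 7 reached the level through sham hearts alone and 1 through MI hearts alone, and without these 7 the falls over both times number 19. Zfp101 signals were 18.4, 25.1 and 3.68 in wake MI against 37.8, 29.8 and 39.7 in wake sham hearts, and 7.03, 15.1 and 16.7 in sleep MI against 39.6, 31.7 and 28.6 in sleep sham hearts. Its log2 difference was -0.77 in wake (SE 0.24, adjusted p = 0.0362, limma), -0.78 in sleep (adjusted p = 0.0993) and -0.77 over both times (SE 0.17, adjusted p = 0.00536). Zfp82 signals were 15.04, 17.1 and 2.32 in wake MI against 23.1, 30.8 and 30.5 in wake sham hearts, and 10.5, 21.0 and 16.6 in sleep MI against 26.5, 22.03 and 26.8 in sleep sham hearts. Its log2 difference over both times was -0.55 (SE 0.15, adjusted p = 0.0186). In both genes the third wake MI heart was the lowest of all 12, and it is also the array with the highest beta-actin ratio, 3.31. At these signals MAS5 values carry little information on order.

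Zfp524 signals were 39.2, 32.6 and 27.8 in wake MI against 58.0, 66.2 and 47.6 in wake sham hearts, and 33.7, 30.8 and 34.6 in sleep MI against 67.1, 44.6 and 59.4 in sleep sham hearts. Every MI heart lay below every sham heart, with a log2 difference of -0.57 over both times (SE 0.11, adjusted p = 0.00232, limma). Zfp942, Zfp825 and Zfp790 fell in wake hearts by 0.62, 0.63 and 0.62 (adjusted p = 0.0210, 0.0329 and 0.0269), and their sleep differences were -0.37, -0.21 and -0.11. A second probe set of Zfp790 gave -0.05 in wake hearts, so that fall rests on 1 of its 2 probe sets. The second probe set of Zfp825 had the opposite order, with -0.30 in wake (adjusted p = 0.310, limma on all probe sets) and -0.91 in sleep hearts (adjusted p = 0.0230), so the larger wake fall holds for its brightest probe set alone. The wake call was lost when any 1 of 3 arrays was left out for Zfp942, and any 1 of 4 for Zfp825 and for Zfp790.

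Some falling members have known roles outside KRAB silencing. Zfp638, an RNA and DNA binding nuclear protein known from adipocyte differentiation and the silencing of unintegrated retroviral DNA, had 81.9, 98.5 and 97.9 in wake MI against 129.9, 157 and 117 in wake sham hearts. Its log2 difference was -0.47 in wake hearts (SE 0.14, adjusted p = 0.0380, limma) and -0.26 in sleep hearts (adjusted p = 0.398). Zfp277, a partner of the Polycomb protein Bmi1, fell in wake hearts by 0.52 (SE 0.15, adjusted p = 0.0244), from 178, 216 and 202 to 164, 140.2 and 101. The wake calls of Zfp638 and Zfp277 were lost when any 1 of 5 and of 3 arrays was left out. Zfp830, which acts in splicing and genome stability, fell in wake hearts by 0.48 (SE 0.15, adjusted p = 0.0426) and had a sleep difference of -0.05. That wake call was lost when any 1 of 8 arrays was left out. A second probe set of Zfp830 gave -0.39 in wake, -0.35 in sleep and -0.37 over both times (adjusted p = 0.0119, limma on all probe sets), so the low sleep value holds for 1 of its 2 probe sets. Zfp386 was the 1 member among the 6 brightest that changed: it stood at 153, 144 and 140.2 in wake MI against 218, 235 and 237 in wake sham hearts, a log2 difference of -0.61 (SE 0.14, adjusted p = 0.0112).

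The remaining falls over both times were in Zfp518b, Zfp160, Zfp33b and Zfp532, with log2 differences of -0.45, -0.38, -0.31 and -0.24. Leaving out a single array ended the call of Zfp532 for 10 of the 12 arrays, of Zfp33b for 7 and of Zfp160 for 4. Likewise, over both times, the call of Zfp790 was lost for 9 arrays, of Zfp825 for 8, of Zfp955b for 7 and of Zfp638 for 3. Zfp51, Zfp160, Zfp277, Zfp33b, Zfp518b, Zfp830 and Zfp955b were named after their values were seen, and they complete the 27 members called in any of the 3 MI comparisons. Among the 80 members that did not pass over both times, Zfp30 had the largest difference, -0.66 (SE 0.24, adjusted p = 0.0677, limma). Its signals were 30.3, 40.9 and 4.37 in wake MI against 61.9, 42.9 and 40.4 in wake sham hearts, and 26.5, 8.29 and 40.4 in sleep MI against 53.1, 36.3 and 35.8 in sleep sham hearts, so it scattered widely within the MI groups.

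Of the 6 brightest members, the other 5 did not pass in any MI comparison on their brightest probe set. Zfp106, an RNA binding protein needed in motor neurons and muscle, had by far the highest signal: 1547 ± 118 in wake MI, 1470 ± 79.9 in wake sham, 1525 ± 74.9 in sleep MI and 1634 ± 142 in sleep sham (SD over 3 arrays). Its log2 difference over both times was -0.01 (SE 0.07, adjusted p = 0.917, limma). Zfp622, a maturation factor of the large ribosomal subunit, gave -0.03 (SE 0.14), and Zfp91, a ubiquitin ligase of the NF-kB kinase NIK, gave -0.02 (SE 0.08). A second, dimmer probe set of Zfp91 was higher with MI by 0.40 over both times (adjusted p = 0.0390, limma on all probe sets), so its probe sets differ. Zfp207, which loads the checkpoint protein Bub3 at kinetochores, gave -0.32 and did not pass (adjusted p = 0.0738).

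Other members with known roles also did not pass over both times. Zfp445, an imprinting regulator, gave 0.12 (SE 0.15), Zfp598, the ligase that senses collided ribosomes, 0.11 (SE 0.12), and Zfp410, an activator of Chd4, 0.09 (SE 0.09). Zfp326, of a complex linking splicing and transcription, gave 0.12 (SE 0.11), Zfp148, a GC-rich DNA binding factor, -0.06 (SE 0.10), and Zfp746, a repressor of Ppargc1a, -0.10 (SE 0.10). Zfp451, a SUMO ligase, gave -0.20 (SE 0.12), Zfp932, known from the silencing of endogenous retroviruses, -0.15 (SE 0.11) and Zfp703 -0.03 (SE 0.14). Of 30 members with a known role listed for description, 18 were measured at the level, 5 were below it (Zfp385a, Zfp423, Zfp467, Zfp503 and Zfp57) and 7 had no probe set of their own symbol alone.

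In wake hearts by themselves, 21 of 105 members passed, 3 higher and 18 lower, or 20.0% against 18.4% of all genes tested. Falls made up 17.1% of members against 10.6% of all genes, and rises 2.86% against 7.81%. The median log2 difference was -0.10 against -0.06 over all genes, and 62.9% of members were negative against 57.6%. Of the 26 members with a mean signal of 100 or more, 19.2% fell and 46.2% were negative, against 11.8% and 56.1% of other genes that bright. After adding the beta-actin ratio to the model 4 members were left, 2 higher and 2 lower, while calls over all 8109 genes tested went from 1494 to 271. Falls no longer outnumbered rises among the members, but 4 calls are too few to read a direction. The ratios of wake MI and wake sham arrays do not overlap, so surgery and RNA quality cannot be told apart there. The member count was 7 without wake MI replicate 3, and 11, 8 and 7 without wake sham replicates 1, 2 and 3. Over all genes tested the counts were 1251, 869, 1207 and 842 in the same order, in place of 1494. Zfp329, Zfp346 and Zfp948 were called in wake hearts under every alternative in which they were tested.

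In sleep hearts 4 of 105 passed, Zfp568 higher and Zfp275, Zfp329 and Zfp958 lower, or 3.81% against 2.66% of all genes tested. Falls were 2.86% of members against 0.974% of all genes, and rises 0.952% against 1.69%. The median log2 difference was -0.15 against -0.05 over all genes, and 78.1% of members were negative against 60.2%. In 35 members, 33.3%, the 3 MI and 3 sham signals did not overlap, against 23.5% of all genes; in wake hearts the share was 31.4% against 35.2%. The sleep count of members fell to 0 without sleep MI replicate 2 or sleep sham replicate 3, and to 1 or 2 without any other single sleep array or any single wake sham array. Without sleep sham replicate 2, Zfp275, Zfp329, Zfp568 and Zfp958 all lost their sleep calls, so what was counted there was other members. Sleep calls over all genes tested were 57 and 126 without sleep MI replicates 1 and 2, in place of 216.

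**Figure D4:**
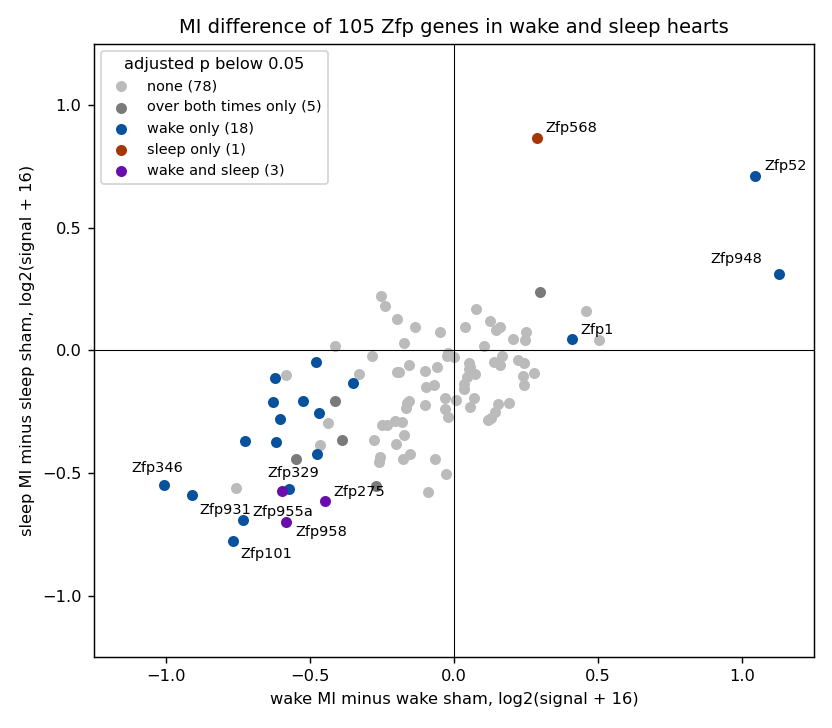
Log2 difference of signal + 16 between MI and sham for 105 Zfp genes, in wake hearts (horizontal) and sleep hearts (vertical); each point is 1 gene, coloured by the comparisons in which it was called at an adjusted p below 0.05. All 21 genes called in wake hearts have the same sign in sleep hearts, and Zfp52, Zfp948 and Zfp568 stand apart at the upper right.

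The wake and sleep comparisons use different mice, so their signs can be set side by side. In 59 members, 56.2%, the difference was negative at both times, against 43.5% of all genes tested. In 16 it was positive at both (15.2% against 25.7%), and in 30 opposite (28.6% against 30.7%). The share with the same sign at both times, 71.4%, was near that of all genes, 69.3%. All 21 members called in wake hearts had the same sign in sleep hearts, as had 1332 of the 1494 genes called in wake hearts, 89.2%. Across members the wake and sleep differences had a Pearson r of 0.672, against 0.638 across all genes tested; genes are not independent replicates, and the 105 points share their 12 arrays.

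**Figure D5:**
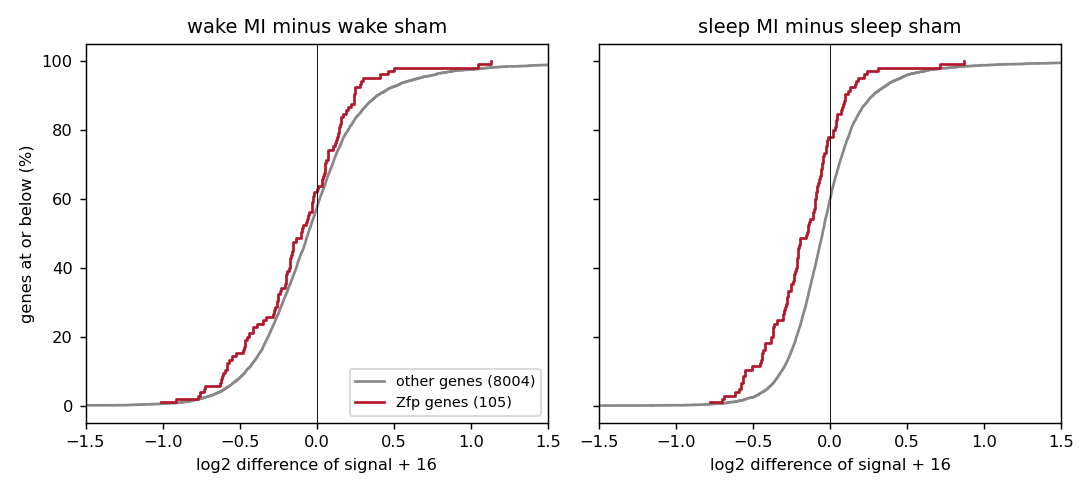
Share of genes at or below each log2 difference of signal + 16 (horizontal axis) for 105 Zfp genes and the 8004 other genes tested, in wake (left) and sleep hearts (right). In sleep hearts 78.1% of the Zfp genes are negative, against 60% of the other genes. In wake hearts the shares are 62.9% and 57.5%, which are near each other.

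Time of day by itself moved no member past the test. Between wake MI and sleep MI hearts 0 of 105 members passed (limma; 4 at an unadjusted p below 0.05), against 0.074% of all genes. The smallest adjusted p was 0.675, and the differences ran from -0.47 to 0.45, the latter in Zfp90. Between wake sham and sleep sham hearts 0 passed (5 unadjusted), against 1.52% of all genes, with the smallest adjusted p of 0.154. After Zfp568, the sham difference was largest in Zfp521, a cofactor of progenitor cells, with 92.8, 115 and 139.9 in wake sham against 72.4, 56.1 and 72.9 in sleep sham hearts, a log2 difference of 0.66 (SE 0.21, adjusted p = 0.159). How much the response to MI differed by time was tested directly, and 0 members passed (3 unadjusted), against 0% of all genes. It was largest in Zfp948, and the lowest value was -0.58 in Zfp568 (SE 0.31, adjusted p = 0.526). By adjusted p, Zfp948 was followed by Zfp276 at -0.48 (SE 0.22, adjusted p = 0.463) and Zfp212 at 0.40 (SE 0.19, adjusted p = 0.468). The sizes of the SEs mean that wake and sleep effects of these genes are not shown to be alike.

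Corepressor genes of KRAB proteins were read as a companion list, together with related genes such as Trim24 and Trim33. Of a list of 29 such genes, 25 were measured and 21 tested, with 1 higher and 3 lower over both times and a median log2 difference of -0.15. That is 19.0% called, against 22.2% of all genes tested, so the count was near the background. Cbx5, which encodes heterochromatin protein 1 alpha, fell by 0.38 (SE 0.10, adjusted p = 0.0139, limma), the DNA methyltransferase gene Dnmt3a by 0.33 (adjusted p = 0.0250) and Mta1, of the NuRD deacetylase complex, by 0.26 (adjusted p = 0.0470). Trim24 rose by 0.24 (adjusted p = 0.0414). Trim28 itself had a difference of -0.23 (SE 0.09, adjusted p = 0.0638) and Setdb1 -0.30 (SE 0.13, adjusted p = 0.103), and neither passed. In wake hearts Dnmt3a and Cbx5 fell by 0.56 and 0.54, which is 9.52% called against 18.4% of all genes. In sleep hearts 0 of 21 passed.

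The members are measured with unequal certainty. On the array 60 members had 1 probe set and 46 had several. Of 33 further probe sets above the testing level, in 25 members, 22 had the sign of the brightest one over both times and 11 the opposite. Of the members' brightest probe sets, 6 carry the suffix s and 6 the suffix x, which mark probes shared with or able to bind other transcripts; the x group holds Zfp931, Zfp825, Zfp622, Zfp110, Zfp764 and Zfp771. Zfp genes have many close relatives, and signals of relatives cannot be separated in these files.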

How the data were processed

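Biotin-labelled RNA from 12 hearts was measured on 12 Affymetrix arrays. The deposited values are probe set intensities on a linear scale, made with MAS5 according to the submitters' processing notes. For MAS5 settings, detection calls and batches the sources used here give nothing. The array has 22690 probe sets; tests left out 64 controls, and only the 20380 with 1 gene symbol were named. Through a mouse gene table (GRCm38.p6, for names and gene order), 12369 gene identifiers matched and 24 did not. The probe set with the largest mean log2(signal + 16) stood for its gene. Genes whose mean signal reached the 40th percentile of probe sets, 17.3, were tested, 8109 in all. Groups were compared on log2(signal + 16) with limma 3.58.1 in R 4.3.3, fitting 4 group means to the 12 arrays with an intensity trend, two-sided tests, 8 residual degrees of freedom (13.9 with the prior) and Benjamini-Hochberg adjustment over all genes within each of 6 comparisons. An exact permutation test of 3 against 3 cannot give a p below 0.1. The number of arrays limits the precision. On simulated data for wake MI against wake sham, 87% of 100 genes changed by 1 on the log2 scale and 100% of 100 changed by 2 were recovered. Among its 197 calls 10 were unchanged genes. Changes below 1, as in most members here, were not simulated, so the recovery of such changes is not known. Promoter windows came from RefSeq. Alternatives were the added constant, level filters, normalization, the mean of probe sets, no intensity trend, a fit of only the groups compared, a block for the replicate number, a beta-actin ratio covariate, and leaving out each array.

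The members, gene lists and alternatives were chosen with earlier results of these data known. The rule for named members took, in each comparison, up to 8 called rises and 8 called falls with the largest change whose groups do not overlap, or the 3 smallest adjusted p where none passed, the 6 brightest, the 3 genes on each side of the level, and 30 with a known role. The labels state no pairing of mice by replicate number. Deviations from the group means correlated between -0.175 and 0.254 in same-numbered arrays, above 0.1 in 5 of 18 pairs. Of 12 arrays, 2 correlated best with their own number. With 3 arrays per group these values cannot exclude a pairing. The labels call the samples biological replicates.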

Additional observations from a re-analysis of the deposited data

How the results depend on the processing

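No called difference of a named member changed sign under any alternative; of those not called, Zfp106, Zfp622, Zfp91, Zfp148, Zfp703 and Zfp598 did (Zfp598 from 0.11 to -0.17 with the beta-actin ratio). Over both times, the count of called members was 11 with a filter at the 60th percentile (45 members in the fit) and 9 after adding a beta-actin ratio covariate. Those 2 fits called 1455 of 5821 and 673 of 8109 genes in all, in place of 1798 of 8109. In wake hearts the member count was 13 without a level filter, 10 at the 60th percentile, 12 with the compared groups alone and 4 with the beta-actin ratio, 2 higher and 2 lower. All-gene counts were 1264 of 12393, 1252 of 5821, and 1092 and 271 of 8109, in place of 1494. In sleep hearts the member count was 0, 2, 1 (Zfp568, higher) and 2 in the same order, with all-gene counts of 140, 195, 190 and 174, in place of 216. A single array left out gave 17 to 27 over both times, 7 to 20 in wake hearts, 0 to 5 in sleep hearts, 0 to 0 for the MI hearts by time and for the difference of effects, and 0 to 1 for the sham hearts by time. The members' median between sham hearts, -0.02, was above 0 without wake sham replicate 3 or sleep sham replicate 1 or 2. The cause of these changes was not tested, except that the 60th percentile filter tests fewer members. With the replicate number as a block the counts were 22, 19, 3, 0, 0 and 0, though the labels state no pairing by number. With each array centred on its median, the sleep calls were 0 higher and 3 lower, in place of 1 and 3. Under all alternatives in which they were tested, 8 of 25 calls over both times were kept (Zfp275, Zfp329, Zfp346, Zfp52, Zfp524, Zfp931, Zfp948 and Zfp958), 3 of 21 in wake and 0 of 4 in sleep hearts; the beta-actin ratio ended 16, 17 and 2 calls. Most members are dim, so small differences among them were not read.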

Other observations

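Other zinc finger and ring finger families, grouped by symbol after the data were seen, are given for comparison over both times, beside 8.57% higher and 13.6% lower among all genes tested and a median log2 difference of -0.06. Of 18 genes with a Zbtb symbol tested, 3 were higher and 1, Zbtb14, was lower in MI hearts (-0.55, SE 0.12, adjusted p = 0.00643, limma). The 18 include Zbtb11os1, which is named as an opposite-strand transcript and not as a zinc finger gene. Of 9 Zscan and Zkscan genes, 1 was higher and 3 were lower, with a median log2 difference of -0.15. Of 42 Rnf genes, 4 were higher and 10 lower, with a median of -0.08. Of 10 Klf genes, 4 were higher and 0 lower, with a median of 0.19. Of 7 Zc3h genes, 1 was higher and 1 lower, of 13 Zdhhc genes, 1 was higher and 0 were lower, and of 7 Zmym and Zmynd genes, 0 were higher and 2 lower.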
